A study of Sus scrofa with 12 samples.

Results

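TAP2 and the genes that work with it in loading peptides onto major histocompatibility complex (MHC) molecules were followed in the Biceps femoris muscle of newborn piglets. The set holds 10 gene symbols named by their role: the peptide transporter TAP1 and TAP2, the loading factor TAPBP, the class I light chain B2M, the immunoproteasome subunits PSMB8, PSMB9 and PSMB10, the class II chaperone CD74, and the regulators CIITA and IRF1. Of these, 7 symbols had a row among the 22861 genes of the table, 1 identifier each, and 6 passed a filter on low values that kept 11875 genes. The identifiers of B2M, PSMB10 and CD74 matched no row and these genes were not analysed here. TAP2 was chosen by its difference between the genetic types in these same animals, being on the study's own list of differing genes, and the others were named with results of these data known. The differences between genetic types are therefore given for all members as a description, with no test.

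In class I presentation the proteasome cuts proteins in the cytosol, and interferon exchanges its catalytic subunits for the inducible PSMB8, PSMB9 and PSMB10. TAP1 and TAP2 form a pump that carries the peptides into the endoplasmic reticulum, where TAPBP (tapasin) bridges the pump to the empty class I molecule. Class II molecules, found mainly on professional antigen presenting cells, are switched on by CIITA and guided by CD74, while IRF1 is a transcription factor induced by interferon. Resting skeletal muscle fibres are known for low class I expression, and leukocytes and vessel cells in the tissue also carry these genes.

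The animals were male piglets on postnatal day 1, 5 Iberian x Duroc crossbreds (IBxDU, Duroc sire and Iberian sow) and 6 pure Iberian piglets (IB, Iberian sire and sow), all born to Iberian sows of one farm. A further IBxDU animal has a label but no values, and was not analysed here. The study states that it dropped 1 IBxDU pig whose sample lay far from its expected group in clustering. Animals are called by genetic type and number as in the labels. Libraries made with an mRNA kit from the RNA of muscle pieces were sequenced as paired ends, and more animals than litters were drawn in each type. Some animals are therefore littermates, no source used here ties an animal to a litter, batch or date, and p-values measure the spread between these animals only. The values are RPKM (reads scaled by the exon length of the gene and by the mapped reads of the library), in which 16953 genes above 0 all gave whole reads to within 0.0001 reads. The recovered exon reads came to 17352445 to 30630157 in IBxDU and 16940746 to 29623056 in IB animals.

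The tissue label was checked against muscle fibre markers, of which 4 of 9 had a row. ACTA1, the skeletal alpha-actin, lay between 18620 and 42760 RPKM in IBxDU and between 25860 and 30820 RPKM in IB animals. Its mean was higher in IBxDU, while the other fibre markers had lower means there. DES averaged 2338 RPKM in IBxDU and 3111 RPKM in IB, and MYH3 19.2 and 34.6 RPKM. TNNT1 averaged 663 and 806 RPKM, with 228 RPKM in IBxDU-402 and 148 RPKM in IB-330. The ranges of all these markers overlapped between the types. One animal stood apart in leukocyte markers. IBxDU-402 had a summed level of 14.0 RPKM for the common leukocyte markers PTPRC and LCP1 (2 of 3 had a row), against 1.18 to 3.06 in the other IBxDU and 1.01 to 2.39 in IB animals. Its macrophage and monocyte markers (4 of 6 had a row) summed to 69.8 RPKM, against 5.62 to 13.0 in the other IBxDU and 9.33 to 17.0 in IB animals, with MARCO, a macrophage scavenger receptor, at 29.7 RPKM. Results that IBxDU-402 moved are given with and without it, and in bulk tissue fewer cells of a type and less RNA per cell cannot be told apart.

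TAP2 (ENSSSCG00000025593), the second chain of the peptide pump, was measured at 9.74, 5.17, 4.99, 2.04 and 3.85 RPKM in IBxDU-402, IBxDU-412, IBxDU-426, IBxDU-427 and IBxDU-429. In the 6 IB animals its lowest, median and highest levels were 0.872, 1.41 and 2.48 RPKM. The groups overlapped through IBxDU-427 alone, which lay under IB-323 (2.14 RPKM) and IB-330 (2.48 RPKM), and the other 4 crossbreds were above every IB animal. The means were 5.16 ± 2.85 RPKM in IBxDU and 1.56 ± 0.656 RPKM in IB (SD, n = 5 and 6). These levels rest on 113 to 472 reads in IBxDU and 68 to 154 reads in IB animals, so depth limits them little. The log2 fold change (IBxDU minus IB, of log2(RPKM + 0.1)) was 1.59 ± 0.37 (SE), larger than that of 99.8% of the genes tested. It ran between 1.32 without IBxDU-402 and 1.88 without IBxDU-427 when each animal was left out in turn.

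TAP1 (ENSSSCG00000025618), the partner chain that TAP2 needs to form the pump, stood at a far lower level. It had 0.0947, 0.350, 0.0915, 0.0827 and 0.174 RPKM in IBxDU-402, IBxDU-412, IBxDU-426, IBxDU-427 and IBxDU-429, and 0.0721, 0.111 and 0.208 RPKM as lowest, median and highest of the IB animals. IBxDU-412 lay above the IB range, the other crossbreds lay within it, and TAP1 was under the filter of 0.5 RPKM in both types, so it has no fold change in the fit. Only 4 to 19 reads in IBxDU and 4 to 12 reads in IB animals fell on it. The 95% exact Poisson interval, for counting error only, was 0.211 to 0.547 RPKM in IBxDU-412, the highest animal, and 0.0258 to 0.243 RPKM in IBxDU-402, where TAP2 was highest. TAP2 exceeded TAP1 by 14.8 to 103 times within IBxDU animals and by 4.94 to 29.6 times within IB animals. Whether the gene model of TAP1 in the Sscrofa10.2 build takes up all of its reads was not tested.

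**Figure D1:**
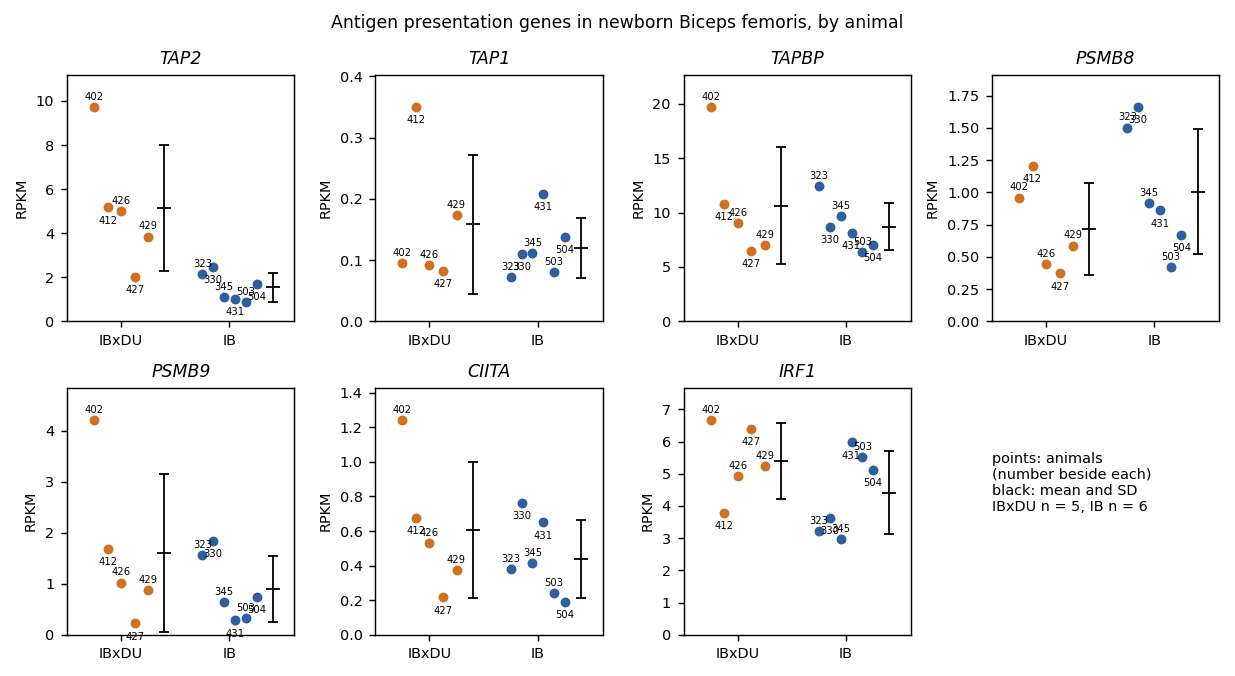
RPKM of the 7 measured members in each animal (points, numbered), with mean and SD in black, IBxDU (n = 5) left and IB (n = 6) right, each panel with its own axis from 0. In the TAP2 panel 4 of 5 IBxDU animals lie above the highest IB animal (2.48 RPKM), and IBxDU-402 is the highest animal for TAP2, TAPBP, PSMB9, CIITA and IRF1.

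TAPBP (ENSSSCG00000001507) was the most abundant member per length in 11 of 11 animals. It had 19.7, 10.8, 9.06, 6.45 and 7.03 RPKM in IBxDU-402, IBxDU-412, IBxDU-426, IBxDU-427 and IBxDU-429, against a lowest, median and highest level of 6.37, 8.40 and 12.4 RPKM in IB. Apart from IBxDU-402, every crossbred lay within the range of the IB animals. The means were 10.6 ± 5.37 RPKM in IBxDU and 8.71 ± 2.15 RPKM in IB (SD), and the log2 fold change of 0.19 ± 0.27 (SE) became -0.06 without IBxDU-402.

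The 2 measured immunoproteasome subunits, which replace constitutive catalytic subunits after interferon, had log2 fold changes of opposite sign. PSMB8 (ENSSSCG00000026951) had 0.960, 1.20, 0.441, 0.372 and 0.587 RPKM in IBxDU-402, IBxDU-412, IBxDU-426, IBxDU-427 and IBxDU-429, against 0.420, 0.888 and 1.66 RPKM as lowest, median and highest in IB. PSMB9 (ENSSSCG00000001463) had 4.21, 1.69, 1.02, 0.223 and 0.879 RPKM in the same order of IBxDU animals, against 0.281, 0.695 and 1.84 RPKM in IB. Both genes overlapped between the types, PSMB9 being above the IB range in IBxDU-402 and under it in IBxDU-427. The log2 fold change of PSMB8 was -0.43 ± 0.38 (SE), negative in 11 of 11 fits without 1 animal and -0.56 without IBxDU-402. That of PSMB9 was 0.56 ± 0.60 (SE), with 0.11 without IBxDU-402 and 1.04 without IBxDU-427. Reads were few, 8 to 29 in IBxDU and 13 to 40 in IB animals on PSMB8, and 4 to 66 in IBxDU and 6 to 37 in IB animals on PSMB9.

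Among the regulators, CIITA (ENSSSCG00000007901), the master switch of class II genes, had 1.24, 0.677, 0.529, 0.217 and 0.375 RPKM in IBxDU-402, IBxDU-412, IBxDU-426, IBxDU-427 and IBxDU-429. The IB animals had 0.189, 0.397 and 0.761 RPKM as lowest, median and highest. CIITA passed the filter only through the IBxDU mean of 0.608 ± 0.394 RPKM, against 0.439 ± 0.226 RPKM in IB (SD), and without IBxDU-402 it did not pass. Its log2 fold change was 0.33 ± 0.42 (SE). IRF1 (ENSSSCG00000014277), the interferon-induced activator, had 6.67, 3.77, 4.93, 6.40 and 5.23 RPKM in the IBxDU animals in that order, against 2.96, 4.38 and 5.98 RPKM in IB. Its groups overlapped over most of their range and its log2 fold change was 0.31 ± 0.23 (SE), or 0.23 without IBxDU-402. IRF1 was the 1 member in which IBxDU-427 was not the lowest crossbred.

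Of the 6 members tested, 5 had a positive log2 fold change, and the median of the 6 was 0.32. Without IBxDU-402, 3 of the 5 that still passed the filter were positive. The first count and the median take in TAP2, chosen on this contrast, and CIITA, which passed the filter only through the IBxDU mean. They are given as a description. Genes as a whole had a median log2 fold change of 0.13 over all genes tested, which upper quartile or median-of-ratios scaling moved to 0.01. Of all genes tested, 66.9% had a positive log2 fold change, or 61.1% without IBxDU-402. The share was 51.1% under upper quartile and 51.3% under median-of-ratios scaling. The same scalings turned the sign of no member. At an adjusted p under 0.05 (limma, Benjamini-Hochberg), 0 of 6 members were called in either direction, while 0.0168% of all genes tested were called higher in IBxDU and 0.0% lower, with 713 higher and 240 lower at an unadjusted p under 0.05. At the study's thresholds, a fold of at least 1.5 with an unadjusted p of at most 0.01, 1 of 6 members (TAP2) was called higher, where 0.985% of all genes were, and 0 of 6 were called lower, where 0.522% were. TAP2 was chosen on this contrast, so nothing is read from its call. Over all genes, 117 higher and 62 lower calls at the study's thresholds became 65 higher and 130 lower under upper quartile scaling.

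By level per length, TAPBP ranked first and TAP1 last of the 7 members in every animal. TAP2 ranked second in IBxDU-402, IBxDU-412 and IBxDU-426, and IRF1 ranked second in IBxDU-427 and IBxDU-429 and in the 6 IB animals. PSMB8, PSMB9 and CIITA shared ranks 4 to 6 in varying order, and their ranges overlapped in both types.

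Ratios within an animal leave out scaling between libraries, since both genes share the same denominator. TAP2/PSMB8 was 10.15, 4.30, 11.3, 5.47 and 6.55 in IBxDU-402, IBxDU-412, IBxDU-426, IBxDU-427 and IBxDU-429, against a lowest, median and highest ratio of 1.20, 1.46 and 2.53 in IB. TAP2/TAPBP was 0.494, 0.480, 0.551, 0.316 and 0.547 in the IBxDU animals, against 0.115, 0.155 and 0.286 in IB. Neither ratio overlapped between the types, and IBxDU-427, which overlapped with IB in the level of TAP2, lay above the IB range in both. Its TAP2/PSMB8 was within the range of the other crossbreds. Its TAP2/TAPBP of 0.316 was nearer to the highest IB ratio (0.286) than to the next crossbred (0.480). IBxDU-402 lay within the range of the other crossbreds in both ratios. The ratios that set TAP2 beside PSMB9 overlapped, at 2.31 to 9.13 in IBxDU and 1.35 to 3.66 in IB. PSMB9/PSMB8, which leaves TAP2 out, was 0.599 to 4.39 in IBxDU, against 0.327 to 1.11 in IB, the crossbreds other than IBxDU-427 being above the IB range. As TAP2 was chosen on its level in these animals, the ratios that hold it lean toward separating the types and are a description. The share of all gene pairs whose ratios separate the types was not counted. Ratios with PSMB8 rest on its 8 to 29 reads in IBxDU and 13 to 40 reads in IB animals.

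**Figure D2:**
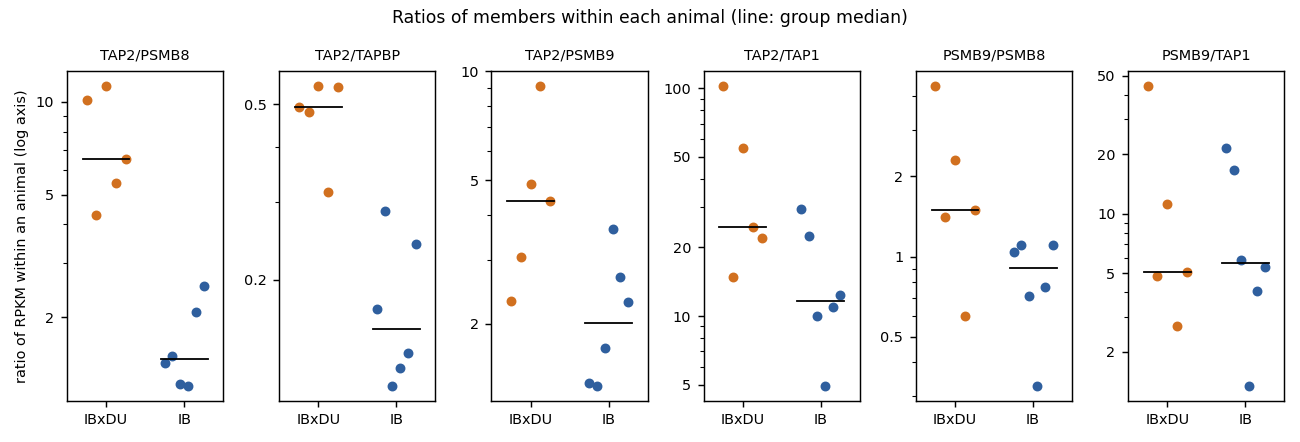
Ratios of RPKM between pairs of members within each animal (points) on log axes, with the group median as a line, IBxDU (n = 5) left and IB (n = 6) right. TAP2/PSMB8 (4.30 to 11.3 in IBxDU, 1.20 to 2.53 in IB) and TAP2/TAPBP (0.316 to 0.551 in IBxDU, 0.115 to 0.286 in IB) do not overlap, while PSMB9/TAP1 does. TAP2 was chosen on its level in these animals, so its ratios are a description.

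Beside the difference between types, the members were compared over the spread of animals within a type. The choice of TAP2 did not use which animals of a type were high or low. Its p-value in the study did take in the size of that spread, and the other members were named with results of these data known. The values are therefore not fully independent of the choice. Each type's mean was subtracted from log2(RPKM + 0.1) and TAP2 was correlated with the other 6 measured members over 11 animals, with exact two-sided permutation tests over the 86400 orders within type, adjusted over the 6 members (Benjamini-Hochberg). PSMB9 followed TAP2 most closely, with Pearson's r = 0.972 (exact permutation p = 6.94e-05, adjusted p = 0.000417) and Spearman's rho = 0.973 (exact permutation p = 6.94e-05, adjusted p = 0.000417). The relation held within IBxDU (r = 0.988, n = 5) and within IB (r = 0.949, n = 6), each given as a description. Without IBxDU-402 and IBxDU-427, the animals farthest from the median of TAP2, r was 0.935 (exact permutation, adjusted p = 0.00972), and without IBxDU-402 alone it was 0.958. Of the other 11874 genes tested, 0 had a higher r with TAP2 than PSMB9. Relative to their type's mean, IBxDU-402, IBxDU-412, IB-323, IB-330 and IB-504 had more of both genes, and IBxDU-427, IBxDU-429, IB-345, IB-431 and IB-503 had less of both. IBxDU-426 alone had more TAP2 and less PSMB9.

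TAPBP and PSMB8 also went with TAP2, less firmly. TAPBP gave r = 0.782 (exact permutation p = 0.0149, adjusted p = 0.0299) and rho = 0.673 (exact permutation p = 0.0334, adjusted p = 0.0669). Its r was 0.639 without IBxDU-402 (exact permutation, adjusted p = 0.127) and 0.541 without the 2 farthest animals (adjusted p = 0.309, exact permutation), so the relation rests on those animals. It also missed the adjusted threshold without IBxDU-412 (r = 0.780), IBxDU-427 (0.721), IBxDU-429 (0.793) and IB-503 (0.757), passing in 6 of 11 leave-outs. PSMB8 gave r = 0.743 (exact permutation p = 0.0137, adjusted p = 0.0299) and rho = 0.709 (exact permutation p = 0.0253, adjusted p = 0.0669), and its r of 0.712 without the 2 farthest animals had an adjusted p of 0.134 (exact permutation), past the threshold no longer. PSMB8 likewise passed in 6 of 11 leave-outs, missing the threshold without IBxDU-402 (r = 0.742, exact permutation, adjusted p = 0.0917), IBxDU-427 (0.693), IBxDU-429 (0.741), IB-330 (0.689) and IB-503 (0.699). Among all genes, 457 (3.85%) had a higher r with TAP2 than TAPBP and 730 (6.15%) a higher one than PSMB8. The median r of all genes with TAP2 was 0.07. Both members thus lay toward the upper end, at a level that many other genes reached too.

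The regulators and TAP1 did not pass this test. CIITA gave r = 0.682 (exact permutation p = 0.0359, adjusted p = 0.0538) and rho = 0.545 (exact permutation p = 0.11, adjusted p = 0.165), with r = 0.984 within IBxDU and 0.261 within IB. Without the 2 farthest animals its r was 0.317. IRF1 gave r = -0.274 (exact permutation p = 0.414, adjusted p = 0.497) and rho = -0.318 (exact permutation p = 0.362, adjusted p = 0.435), and r = -0.508 without the 2 farthest animals. TAP1 gave r = -0.01 (exact permutation p = 0.983, adjusted p = 0.983) and rho = 0.02 (exact permutation p = 0.972, adjusted p = 0.972), and r = -0.107 without the 2 farthest animals, and with 4 to 19 reads per animal its values are imprecise. The summed leukocyte and macrophage markers were highest in IBxDU-402 and IB-330 and lowest in IBxDU-427 and IB-503, as was TAP2. The macrophage and monocyte sum was 69.8 RPKM in IBxDU-402 and 5.62 RPKM in IBxDU-427. In IB-330 it was 17.0 RPKM and in IB-503 9.33 RPKM. These markers thus varied with TAP2 at both ends of both types, and their part in these relations was not tested.

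**Figure D3:**
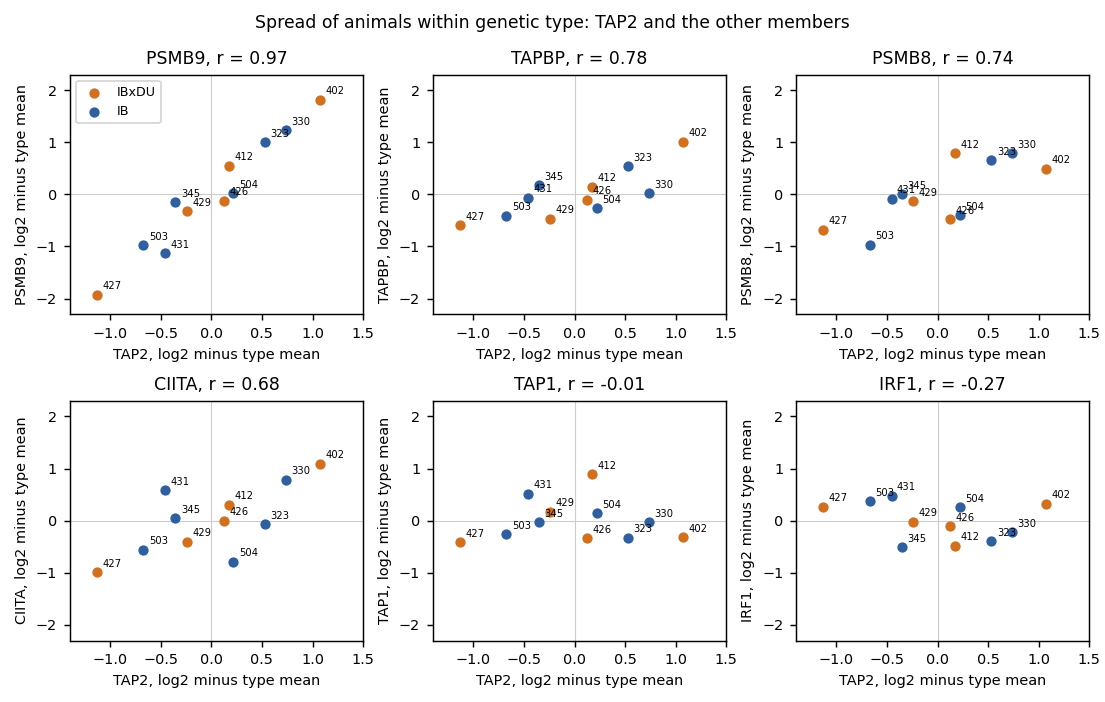
log2(RPKM + 0.1) of TAP2 (horizontal) and of each other member (vertical) after subtracting the mean of the animal's genetic type, 1 point per animal, IBxDU and IB in separate colours. PSMB9 lies close to a line (r = 0.972), while TAP1 (r = -0.01) shows no slope.

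In the order of genes on the Sscrofa11.1 assembly, used for neighbours only, TAP2, PSMB8, TAP1 and PSMB9 follow each other with no gene between them, flanked by the class II gene SLA-DOB on one side, and none of these gene models overlap. Of these adjacent genes, PSMB9, the farthest of the 4 from TAP2, had the highest r with it and TAP1 the lowest.

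The genes tested whose within-type pattern was most like that of TAP2, other than members, were TRAIP (r = 0.957), a ubiquitin ligase acting at stalled replication, ENSSSCG00000028872 (r = 0.944), ENSSSCG00000010705 (r = 0.926), PLPP5 (r = 0.924), a lipid phosphatase, and LOXL1 (r = 0.923), an enzyme of elastic fibre formation. LOXL1 was measured at 24.9 RPKM in IBxDU-402 and between 3.53 and 7.88 RPKM in the other IBxDU animals, against 3.46 to 10.3 RPKM in IB. TRAIP was at 1.59 RPKM in IBxDU-402 and listed at 0 in IBxDU-427 and IB-503. These 5 genes thus shared with TAP2 the high value of IBxDU-402.

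PSMB8 had other companions. NADSYN1 (r = 0.966), an enzyme of NAD synthesis, ENSSSCG00000027142 (r = 0.964), SEMA6D (r = 0.957), a semaphorin, ENSSSCG00000022338 (r = 0.956) and ASB3 (r = 0.952) were closest to it over the 11 animals. In all 5 the highest animal was IBxDU-412, with NADSYN1 at 2.55 RPKM there and at 0.832 RPKM in IBxDU-427. PSMB8 was highest among the crossbreds in IBxDU-412 too.

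The rest of the pathway was counted over 6 lists of 73 symbols, of which 44 had a row and 39 were tested, 25 with a positive and 14 with a negative log2 fold change and a median of 0.10, beside 0.13 for all genes. Under upper quartile scaling 16 were positive and 23 negative. Over all genes tested, 66.9% were positive, or 51.1% under upper quartile scaling. The sign counts of the lists are given beside these shares as a description. At an adjusted p under 0.05 and at the study's thresholds, 0 of 39 were called in either direction (limma), and 1 of 39 (CANX) had an unadjusted p under 0.05. limma-voom on the recovered reads called 0 of 39 as well.

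Peptide loading partners were the list with the highest median, 0.24. Of these, 6 of 7 were positive, or 5 of 7 under upper quartile scaling, beside 66.9% and 51.1% of all genes. CANX, the chaperone calnexin that holds new class I chains, averaged 46.2 ± 13.5 RPKM in IBxDU and 31.3 ± 2.59 RPKM in IB (SD). Its log2 fold change was 0.52 ± 0.18 (SE, limma adjusted p = 0.539). Every crossbred (34.61 to 67.85 RPKM) lay above every IB animal (27.19 to 34.47 RPKM), by a narrow margin. The share of all genes whose levels separate the types was not counted. CALR, calreticulin of the loading complex, averaged 182 ± 77.4 RPKM in IBxDU and 123 ± 23.2 RPKM in IB, and PDIA3, its disulfide isomerase, 89.1 ± 43.3 RPKM in IBxDU and 59.7 ± 7.55 RPKM in IB (limma adjusted p = 0.612 and 0.616). Without IBxDU-402 their log2 fold changes were 0.29 and 0.23. ERAP1, which trims peptides after transport, averaged 6.26 ± 0.78 RPKM in IBxDU and 5.47 ± 1.08 RPKM in IB (limma adjusted p = 0.751). None of these passed the test.

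Of the constitutive proteasome counterparts and activators, 4 of 7 were tested. Among them 3 were positive, or 2 under upper quartile scaling, beside 66.9% and 51.1% of all genes. PSME3, a nuclear activator cap, averaged 35.6 ± 10.5 RPKM in IBxDU and 25.8 ± 5.60 RPKM in IB (log2 fold change 0.44 ± 0.23 SE, limma adjusted p = 0.618). PSME2 and PSME1, the interferon-inducible activator pair, had log2 fold changes of 0.17 and -0.05, or 0.03 and -0.23 without IBxDU-402. PSMB7, the constitutive subunit that PSMB10 replaces, had 0.09, or 0.01 without IBxDU-402 and -0.03 under upper quartile scaling. Without IBxDU-412, PSME3 and CANX passed the study's thresholds at log2 fold changes of 0.63 and 0.61, but not the adjusted threshold (limma adjusted p = 0.261 and 0.255). Of the class I list 1 of 11, FCGRT, the neonatal Fc receptor of the class I family, was tested, at 62.9 ± 21.3 RPKM in IBxDU and 58.1 ± 10.9 RPKM in IB (limma adjusted p = 0.925), and the sign of its log2 fold change of 0.07 turned under the same scaling and without IBxDU-402 (-0.10).

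Class II genes, which present peptides from outside the cell, had 2 positive and 4 negative log2 fold changes of 6 tested, or 1 and 5 under upper quartile scaling, and a median of -0.13. SLA-DRA, a class II alpha chain, had 61.7, 31.6, 17.7, 16.6 and 15.4 RPKM in IBxDU-402, IBxDU-412, IBxDU-426, IBxDU-427 and IBxDU-429, against 15.6, 29.8 and 31.1 RPKM as lowest, median and highest in IB. IBxDU-402 alone lay well above the IB range. Its log2 fold change was -0.09 (limma adjusted p = 0.945), and -0.42 without IBxDU-402 (limma adjusted p = 0.539). The peptide exchange factors SLA-DMA and SLA-DMB had -0.27 and -0.26, or -0.69 and -0.68 without IBxDU-402 (limma adjusted p = 0.466 and 0.468), and CTSS, a protease of the class II route, had 0.44, or 0.00 without IBxDU-402. Reads of SLA genes can be shared among near-identical family members, which makes their levels uncertain.

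The regulators other than CIITA and IRF1 had 5 of 5 tested genes positive, or 2 of 5 under upper quartile scaling. Of all genes, 66.9% were positive, or 51.1% under that scaling. The median of these regulators was 0.10, beside 0.13 for all genes. NFYA, NFYB and NFYC, the subunits of the CCAAT-binding factor at MHC promoters, had log2 fold changes of 0.27, 0.24 and 0.10, and RFX5, which binds the same promoters, 0.10 (limma adjusted p from 0.731 to 0.952). The signs of NFYC and RFX5 turned under upper quartile scaling, and without IBxDU-402 RFX5 was at -0.14, while NFYA and NFYB were at 0.39 and 0.36. Interferon signalling and induced genes were split, 8 positive and 8 negative of 16 tested, or 6 and 10 under upper quartile scaling, with a median of -0.00. IFNGR1, the interferon gamma receptor chain, averaged 8.60 ± 1.66 RPKM in IBxDU and 6.92 ± 2.56 RPKM in IB (log2 fold change 0.36), the kinase JAK1 had 0.27, the feedback inhibitor SOCS1 0.62 and the factor IRF7 -0.31 (limma adjusted p from 0.676 to 0.777). SOCS1 was at 10.8 RPKM in IBxDU-427, with a median of 1.82 RPKM in IBxDU and 2.56 RPKM in IB, 2 of 5 crossbreds lay above the IB mean, and without IBxDU-427 its log2 fold change was 0.18. Without IBxDU-402, SOCS1 was at 0.89, IRF7 at -0.50, IFNGR1 at 0.26 and JAK1 at 0.24.

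**Figure D4:**
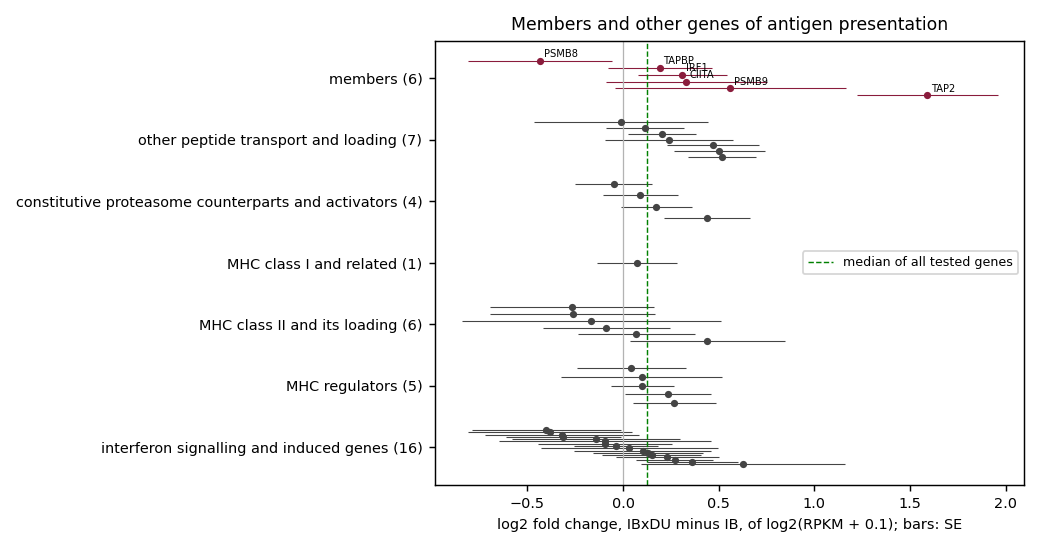
log2 fold change (IBxDU minus IB) with SE for the 6 tested members and the tested genes of each pathway list, 1 point per gene, with the median of all genes tested (0.13) as a dashed line. TAP2 lies at 1.59, and every gene of the 6 lists lies between -0.40 and 0.62.

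Markers of other cell types that could carry these genes were summed as well. Dendritic cell markers (4 of 6 had a row) came to 0.0738 to 1.03 RPKM in IBxDU and 0.153 to 0.308 RPKM in IB, with XCR1 listed at 0 in IBxDU-426 and IBxDU-427 and in IB-330 and IB-504. T and NK cell markers (4 of 6) came to 0.286 to 5.14 RPKM in IBxDU and 0.344 to 4.12 RPKM in IB, mostly CD4, with CD8A and NCR1 listed at 0 in several animals of both types. B cell markers (3 of 4) came to 0.704 to 1.95 RPKM in IBxDU and 0.302 to 3.10 RPKM in IB, and endothelial markers (2 of 4) to 65.7 to 118 RPKM in IBxDU and 61.2 to 97.0 RPKM in IB. The adipocyte marker PLIN1 (1 of 2) ranged from 1.85 to 55.9 RPKM in IBxDU and from 0.154 to 30.1 RPKM in IB, with the highest level again in IBxDU-402, and red cell markers (2 of 2) from 369 to 729 RPKM in IBxDU and from 287 to 559 RPKM in IB. The ranges overlapped between the types for every list, and the part of these cell types in the level of TAP2 was not tested.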

How the data were processed

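Biceps femoris RNA of 11 male piglets (5 IBxDU, 6 IB) was analysed. Paired reads were mapped by the authors to Sscrofa 10.2 (CLC Bio Genomic Workbench 7.0), and the deposited table gives the RPKM of every gene for each animal. Their comparison of the genetic types was deposited as 2 further columns, an unadjusted p-value and a signed fold change held here as a score, neither of which was used. Symbols came from a gene name table (11450 of 22861 identifiers had one).

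Exon reads were recovered from the RPKM steps (88.4 to 93.7% of each library's denominator); whether these are reads or read pairs is not given in the sources used here. Genes with a mean over 0.5 RPKM in either type were fitted as log2(RPKM + 0.1) on genetic type in limma 3.58.1 (trended; R 4.3.3), with p-values adjusted by Benjamini-Hochberg over all 11875. The limma fit was tested on simulated data. Correlations and their permutations used numpy 2.4.6, with ranks from scipy 1.17.1. Members, 6 pathway lists and 9 marker lists were chosen with earlier results of these data known. Named genes were all members, the 4 genes of smallest p in each list, and the 5 genes most like TAP2 and PSMB8. SLA-DRA and SLA-DOB were matched by human-style names. Alternatives were a pseudocount of 1, no filter, upper quartile and median-of-ratios scaling, leaving out each animal and, chosen after seeing the data, limma-voom on recovered reads. No sequences were used here.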

Additional observations from a re-analysis of the deposited data

Results flagged for a closer look

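Within each type, the highest and lowest animals were set against the rest for 37 levels and summed marker levels (74 group checks), and 5 lay farther from the nearest animal than Dixon's 95% limit, where chance flags about 1 in 20 groups. In 4 of them the animal was IBxDU-402. PSME1, an activator of the proteasome, was at 64.1 RPKM in IBxDU-402, against 38.6 RPKM in the next crossbred. CTSS was at 20.5 RPKM there, against 6.59 RPKM in the next. The summed common leukocyte markers were at 14.0 RPKM there, against 3.06 RPKM in the next, and the summed macrophage and monocyte markers at 69.8 RPKM, against 13.0 RPKM. In IB, SLA-DMB was at 6.74 RPKM in IB-330, against 4.50 RPKM in the next animal. TAP2 itself, at 9.74 RPKM in IBxDU-402, did not pass the limit. The 37 items did not take in every gene of the lists. IFI30, which was not among them, was at 42.7 RPKM in IBxDU-402 and 8.93 RPKM in IBxDU-412. The checks share the same animals, so the flags are not independent of each other.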

How the results depend on the processing

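The log2 fold change of TAP2, on which it was chosen, ran between 1.19 (pseudocount 1) and 1.88 (without IBxDU-427). Among the other members, TAPBP turned to -0.06 without IBxDU-402, and no other member changed sign. Of all genes, the 2 called higher at an adjusted p under 0.05 became 1 under upper quartile scaling, median-of-ratios scaling and limma-voom, and 1 to 2 when each animal was left out. At the study's thresholds the 117 genes higher became 65 (upper quartile) and 63 (median-of-ratios), and 53 (without IBxDU-429) to 256 (without IBxDU-412), with 182 without IBxDU-402. The 62 genes lower became 130 (upper quartile) and 137 (median-of-ratios), and 41 (without IBxDU-426) to 131 (without IBxDU-412). The cause was not tested. Other pathway genes called higher at those thresholds numbered 0 to 2 over the leave-outs, 2 without IBxDU-412. The correlation of TAP2 with CIITA was 0.758 with a pseudocount of 1, past the adjusted threshold, and 0.515 to 0.821 over the leave-outs. Without the 2 farthest animals the r of TAPBP was 0.541 and that of PSMB8 0.712, and over the leave-outs TAPBP ran from 0.639 to 0.842, PSMB8 from 0.689 to 0.795 and TAP1 from -0.308 to 0.196. PSMB9 ran from 0.955 to 0.982 and passed in 11 of 11. No paired analysis was possible because the animal numbers are not shared between the types. TAP1, PSMB8, PSMB9 and CIITA rest on few reads, and 3 of the 10 symbols were not measured here.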
